A study of Mus musculus with 6 samples.

Results

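Kinesins are motor proteins that use ATP to walk along microtubules or to take microtubule ends apart. Some act in the mitotic spindle, where they build a bipolar spindle, align chromosomes and complete cytokinesis, and many of these are made mainly in dividing cells. Others carry vesicles, mitochondria and protein complexes through the cytoplasm, and some work in or at cilia. The kinesin genes described here are all genes whose platform symbol starts with Kif and a digit and which have a probe set of their own, 38 of 19939 genes measured. By textbook role they comprise 11 mitotic, 15 transport, 6 ciliary and 5 other kinesin genes, plus the pseudogene Kif4-ps, which the symbol rule takes in and which has no role assigned. Where a gene had several such probe sets (6 of the 38), that with the highest mean level was used.

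The samples were 3 of a tetraploid mouse embryonic fibroblast line, labelled 174 and given as having abnormal DNA contents, and 3 of a diploid line, labelled FW and given as the normal control. The series title calls the tetraploid cells transformed. Both were cultured in DMEM with fetal bovine serum, and total RNA was measured on Affymetrix whole-transcript arrays. With 1 line per ploidy, the effects of ploidy, of transformation and of the line itself cannot be told apart. Nothing in the labels says that samples of a line are separate cultures, and p-values then measure only the spread between these samples, which may be technical.

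Values are log2 expression values as deposited, differences are tetraploid minus diploid on that scale, and a gene was called when its limma p-value, adjusted over all genes, was below 0.05. On this rule 13.8% of all genes were called, 6.08% as higher and 7.75% as lower in the tetraploid line. The 3 values of each line did not overlap for 37.3% of all genes. The median difference of all genes was 0.07, and array medians lay between 7.24 and 7.28, so differences are relative to other genes and not amounts per cell. The background level of an array was the 95th percentile of 1027 olfactory receptor genes and lay between 7.01 and 7.41. Fibroblast markers were present: 11 of 12 lay above background on all 6 arrays. Of the 12, Col1a1, Fn1 and Lum fell, with Lum below background on all tetraploid arrays, and the mean of the list ran from 11.12 to 11.56 on the tetraploid and from 11.78 to 12.11 on the diploid arrays. Macrophage markers averaged 3.95 to 4.28 on the tetraploid arrays and 4.74, 6.54 and 7.35 on diploid arrays 1 to 3. Of these 15 genes 3 fell and 0 rose, 0 lay above background on all 6 arrays and 6 lay above it on none. Of the other marker lists, 0 of 11 multiciliated, 1 of 8 epithelial and 2 of 7 endothelial genes fell and 0 rose.

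Of the 38 kinesin genes, 12 rose, 5 fell and 21 were not called, so 44.7% were called, beside 13.8% of all genes. The roles differed in their counts. Of the 11 mitotic kinesin genes 9 rose and 0 fell (6.08% of all genes rose), with a median difference of 1.34. Of the 15 transport kinesin genes 2 rose and 4 fell (7.75% of all genes fell), with a median difference of 0.05. Of the 6 ciliary genes 1 rose, and of the 5 other genes 1 fell. In bulk RNA, a larger share of cells in division and more RNA per dividing cell cannot be told apart.

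**Figure D1:**
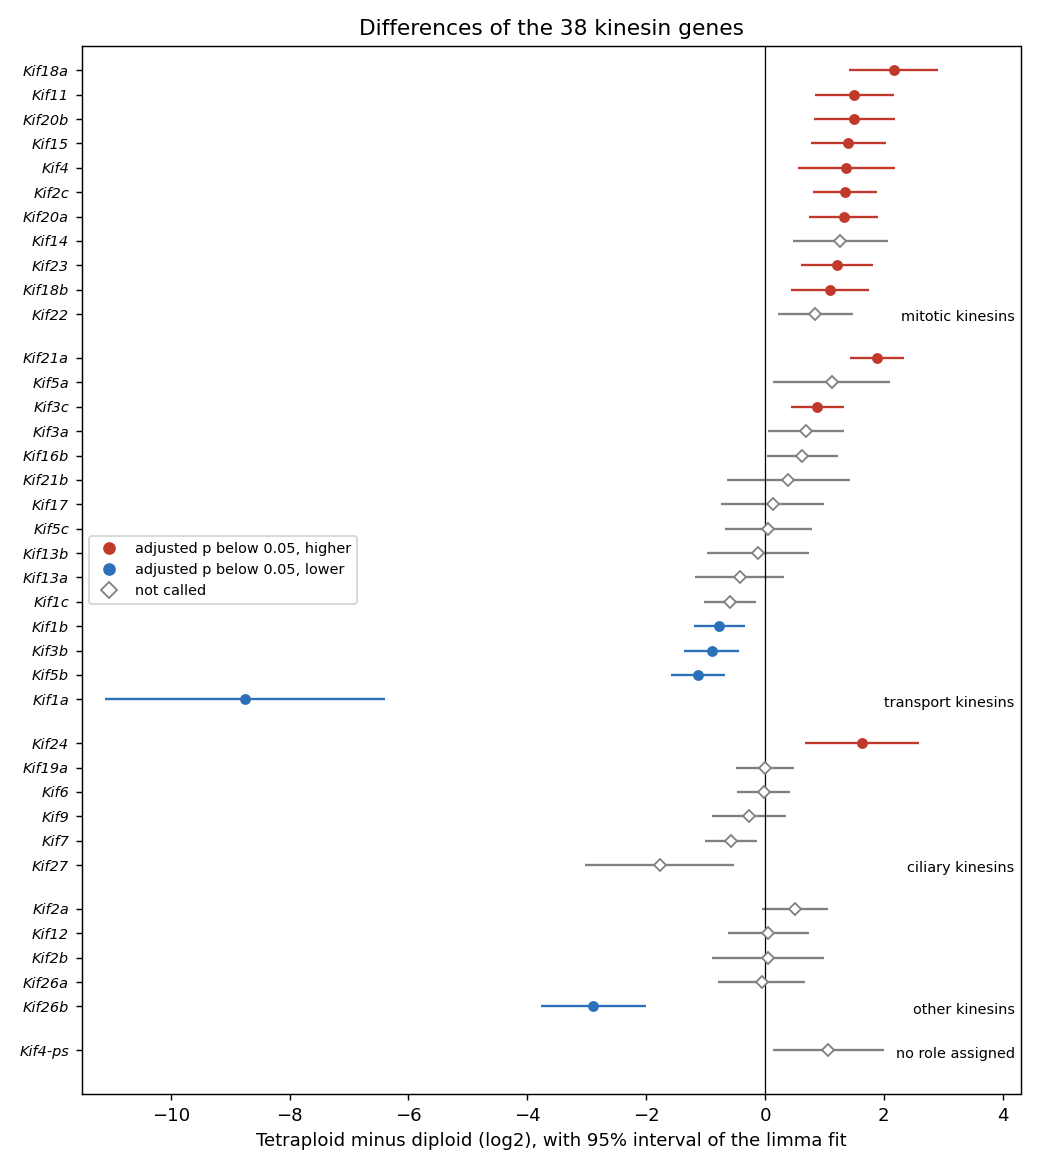
Tetraploid minus diploid difference in log2 for each of the 38 kinesin genes, grouped by role, with the 95% interval of the limma fit; filled points passed the test and open points did not. All 11 mitotic genes lie to the right of 0, while the transport genes lie on both sides, with Kif1a at -8.74.

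The promoters of the mitotic members were set beside those of the transport members because the mitotic genes moved together. The cell cycle genes homology region (CHR) is a promoter element known from genes active late in the cell cycle, often near a CCAAT box. Its letters, TTTGAA or TTTAAA on either strand, were searched in RefSeq promoter windows (GRCm38.p6) that run from 250 bases before to 50 bases after a start. Such windows were at hand for 10 of the 11 mitotic genes, 1 each, and for 11 of the 15 transport genes, 13 in all. The CHR letters were in 9 of the 10 mitotic windows (90.0%), in 1 of the 13 transport windows (7.69%) and in 27.6% of all 32851 windows. Among those 9, the windows of Kif18b, Kif20b, Kif23 and Kif4 had no CHR letters within the 250 bases before the start. Theirs lay at or after the start. CCAAT on either strand was in 6 of the 10 mitotic windows, in 4 of the 13 transport windows and in 37.4% of all windows. Both together were in 6 of the 10 mitotic windows, in 0 of the 13 transport windows and in 10.7% of all windows. Among windows placed at the 5′ end of the gene in the RefSeq gene table (within 10 bases), CHR letters were in 4 of 5 mitotic, 0 of 3 transport and 30.0% of all 20653 windows. Those 4 include Kif18b and Kif4, with no CHR letters before the start. The windows of Kif14, Kif20b, Kif22, Kif23 and Kif2c, and that of Kif1a with CHR letters, were not placed at that end. They are counted in the 90.0% and 7.69% all the same. A match of letters is a description and no evidence of binding, and these short words occur often.

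The last 120 bases before the start are shown for 4 mitotic members and, for contrast, for the transport member Kif3c, with CHR letters, CCAAT and the E2F words TTTCCCGC, TTTGGCGC, TTTCGCGC and TTTGCCGC (either strand) in capitals. Kif11 (chr19:37376262-37376381, plus strand) and Kif22 (chr7:127042421-127042540, minus strand) hold a CCAAT box on the reverse strand and, nearer the start, a CHR. Kif15 (chr9:122950961-122951080, plus strand) has an E2F word that abuts a CHR. Kif18a (chr2:109280618-109280737, plus strand) was the mitotic member without CHR letters anywhere in its window and holds an E2F word close to the start. Kif3c (chr12:3365012-3365131, plus strand) holds none of these words. The window of Kif22 was not placed at the 5′ end of its gene in the RefSeq gene table, unlike the others shown. The sequences shown do not stand for their whole class. Before the start, the transport genes Kif1b, Kif3a and Kif3b hold CCAAT and a window of Kif1a holds CHR letters. The mitotic genes Kif18b, Kif20b, Kif23 and Kif4 hold no CHR letters there. An E2F word was in 2 of the 10 mitotic windows, in 0 of the 13 transport windows and in 2.26% of all windows.
Kif11: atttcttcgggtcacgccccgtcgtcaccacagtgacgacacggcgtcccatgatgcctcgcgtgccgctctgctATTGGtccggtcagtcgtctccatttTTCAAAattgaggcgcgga
Kif22: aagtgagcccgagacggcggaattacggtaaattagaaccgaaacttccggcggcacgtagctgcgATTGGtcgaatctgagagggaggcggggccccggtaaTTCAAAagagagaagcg
Kif15: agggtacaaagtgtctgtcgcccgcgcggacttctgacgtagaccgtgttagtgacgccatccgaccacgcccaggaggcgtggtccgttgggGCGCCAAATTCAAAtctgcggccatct
Kif18a: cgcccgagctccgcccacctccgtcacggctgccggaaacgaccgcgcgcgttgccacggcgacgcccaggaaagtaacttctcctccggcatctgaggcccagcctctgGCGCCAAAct
Kif3c: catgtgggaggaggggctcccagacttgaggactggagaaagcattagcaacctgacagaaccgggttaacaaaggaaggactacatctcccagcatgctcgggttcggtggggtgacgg

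Spindle assembly and chromosome alignment were represented by 7 of the 11 mitotic members, of which 6 rose (6.08% of all genes rose). Kif11 encodes the motor that pushes spindle poles apart. It read 10.45, 10.74 and 10.73 (tetraploid arrays 1 to 3) against 8.79, 8.92 and 9.68 (diploid arrays 1 to 3), and values below are in that order. The lowest tetraploid value lay above the highest diploid value, and the difference was 1.51 ± 0.28 (SE, n = 3 per line; 2.84-fold, adjusted p = 0.0175). Kif15, a motor that can stand in for Kif11 in keeping the spindle bipolar, read 9.44, 8.86 and 9.15 against 7.59, 7.49 and 8.16 (2.65-fold higher, adjusted p = 0.0183). Both genes thus rose by similar amounts, and their groups did not overlap.

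Kif18a, a motor that dampens chromosome movements at the metaphase plate, had the largest difference of the mitotic members. It stood at 9.37, 9.28 and 8.97 in the tetraploid line and at 6.69, 6.73 and 7.70 in the diploid line, where arrays 1 and 2 lay below background. The difference was 2.17 ± 0.32 (SE, 4.49-fold, adjusted p = 0.00843), or 1.81 where low values were lifted to background, and the call held in all 6 fits without 1 array (adjusted p 0.00896 to 0.0398). Kif18b, a relative that limits the length of astral microtubules, read 9.14, 8.88 and 8.69 against 7.69, 7.44 and 8.31 (2.13-fold higher, adjusted p = 0.0457). Kif2c, which takes microtubule ends apart and so corrects faulty attachments at kinetochores, read 10.59, 10.44 and 10.25 against 9.02, 8.82 and 9.41 (2.54-fold higher, adjusted p = 0.0133). In each of these genes the lines were separate, with diploid array 3 nearest to the tetraploid values.

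The chromokinesins Kif4 and Kif22 bind chromosome arms. Kif4 read 10.09, 9.25 and 9.33 against 8.19, 7.67 and 8.69 (2.59-fold higher, adjusted p = 0.0440). Its pseudogene Kif4-ps stood at 7.28, 6.79 and 7.46 against 5.41, 6.06 and 6.87, and was not called (adjusted p = 0.125). All its diploid values and tetraploid array 2 lay below background, so no fold is given beside the deposited difference of 1.06. Its second probe set differed by 0.55. A probe set of a near-identical copy can take up signal of Kif4, so the values of this pair are uncertain. Kif22 read 9.93, 9.64 and 10.15 against 8.78, 8.89 and 9.50, and its groups did not overlap. Its difference of 0.85 (95% interval 0.22 to 1.47, adjusted p = 0.0816) did not pass the test.

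Among the called genes of spindle assembly and alignment, that of Kif18a was the only call kept without diploid array 1 (the other 5 had adjusted p 0.0556 to 0.141) and without diploid array 2 (0.0634 to 0.154). The calls of Kif18b and Kif4 also ended without tetraploid array 1, 2 or 3 (adjusted p 0.0681 to 0.103 over both genes), that of Kif4 without diploid array 3 (0.0551) and that of Kif11 without tetraploid array 2 (0.0554). The direction was kept in each of these fits.

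Cytokinesis was represented by the other 4 of the 11 mitotic members, of which 3 rose (6.08% of all genes rose). Kif23 is the motor of the centralspindlin complex, which bundles the midzone microtubules between separating chromosomes. It read 11.06, 10.61 and 10.94 in the tetraploid line and 9.52, 9.40 and 10.07 in the diploid line, a difference of 1.21 ± 0.26 (SE, 2.31-fold, adjusted p = 0.0257). Kif20a, which brings the chromosomal passenger complex to the midzone, read 11.10, 11.18 and 11.34 against 9.69, 9.65 and 10.31 (2.50-fold higher, adjusted p = 0.0167). Kif20b, a midzone motor of the same family, read 9.92, 9.92 and 9.88 against 8.16, 8.04 and 9.01 (2.84-fold higher, adjusted p = 0.0191). The tetraploid values of Kif20b had an SD of 0.02, the smallest among the mitotic members, beside 0.53 over the diploid arrays.

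Kif14, a cytokinesis motor that works with citron kinase, lay just past the threshold. It stood at 8.08, 7.36 and 7.41 against 5.84, 6.30 and 6.90, so the lines did not overlap, and all diploid values were below background. Tetraploid array 2 also lay below background, so no fold is given. The difference was 1.27 (95% interval 0.47 to 2.07, adjusted p = 0.0517), or 0.47 where low values were lifted to background. Its second probe set lay below background on all 6 arrays at 5.65 to 6.09, with a difference of -0.05. The calls of Kif23, Kif20a and Kif20b ended without diploid array 1 (adjusted p 0.0680 to 0.0945) and without diploid array 2 (0.0755 to 0.104). Kif23 also lost its call without tetraploid array 1 (0.0576) or 3 (0.0621) and Kif20b without tetraploid array 2 (0.0568).

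**Figure D2:**
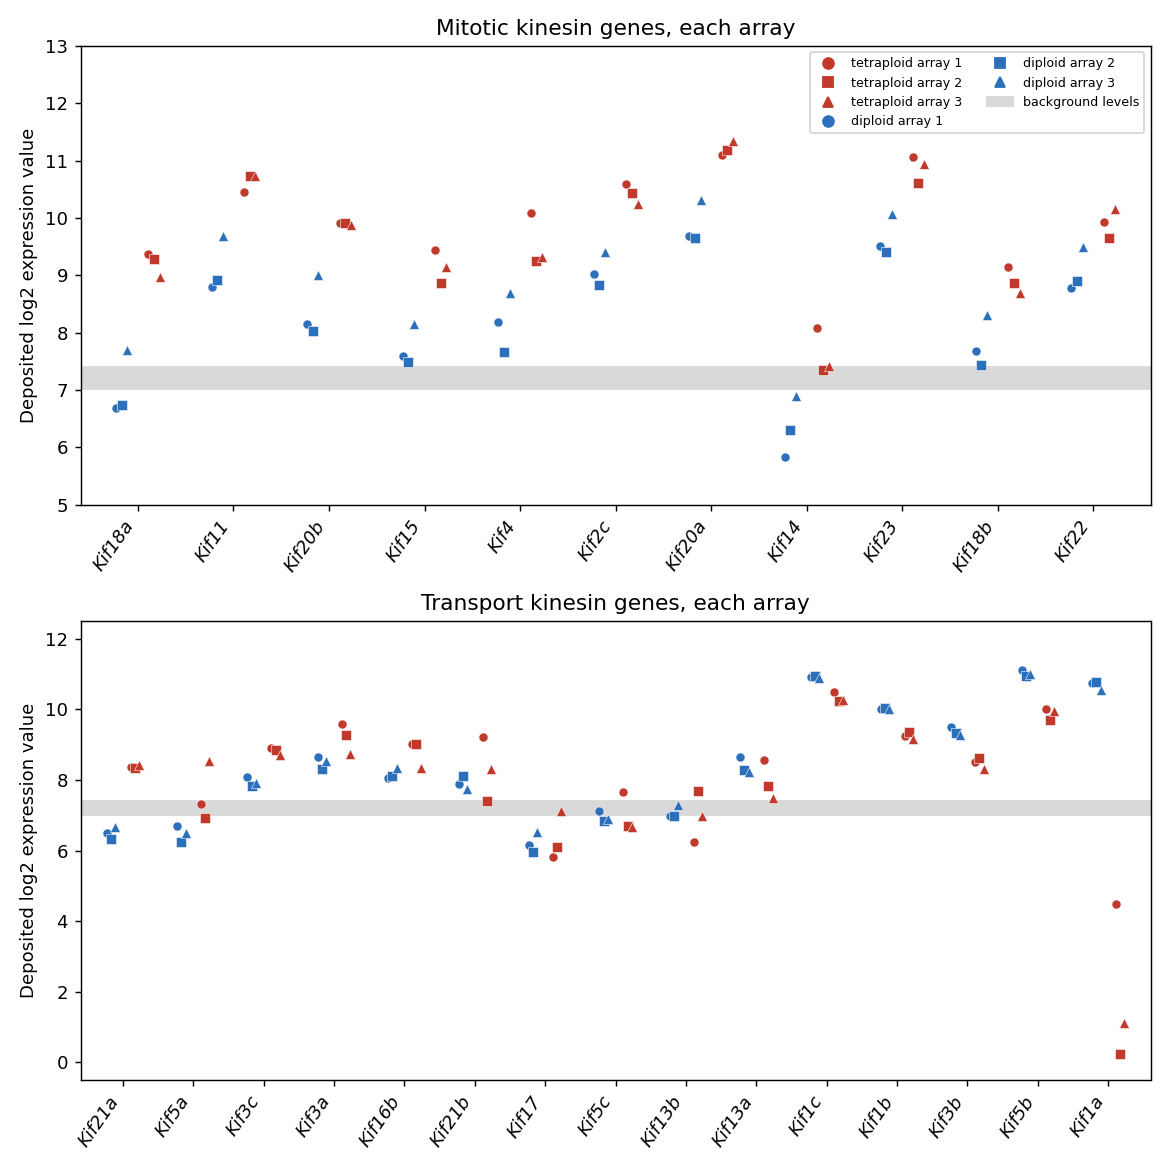
Deposited log2 expression value on each of the 6 arrays for the 11 mitotic (top) and 15 transport (bottom) kinesin genes, ordered by difference; red marks tetraploid and blue diploid arrays, marker shapes give the array number, and the grey band spans the background levels of 7.01 to 7.41. Every mitotic gene shows 3 red points above 3 blue points with diploid array 3 the highest blue point, and Kif1a is the transport gene whose red points drop far below the band.

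In 11 of 11 mitotic genes the tetraploid values lay above the diploid values, as they did in 19.1% of all genes. Their differences ran from 0.85 to 2.17, that is from 1.80-fold to 4.49-fold. The diploid arrays were not alike for these genes. Diploid array 3 was the highest of the 3 in 11 of 11 (39.2% of all genes), by 0.38 to 0.97 over the next diploid array. The median of the 11 values was 9.93, 9.64 and 9.88 for the tetraploid and 8.19, 8.04 and 9.01 for the diploid arrays. Against diploid array 3 alone the tetraploid means were still higher in 11 of 11, by 0.41 to 1.51, with a median of 0.90, beside medians of 1.52 and 1.60 against diploid arrays 1 and 2. The SD over the diploid arrays exceeded that over the tetraploid arrays in 11 of 11 mitotic genes, beside 35.3% of all genes.

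Other genes of dividing cells moved with them. Of 9 measured proliferation markers 8 rose (6.08% of all genes rose) and 0 fell. Their mean was 11.25, 11.15 and 11.01 on the tetraploid and 9.67, 9.65 and 10.27 on the diploid arrays. Diploid array 3 was the highest diploid array in 9 of 9. The same array had the highest mean of the macrophage markers (7.35). The part of the share of dividing cells, and of other cells, in the mitotic kinesin differences was not tested. Without diploid array 1 or 2 the count of mitotic genes that rose was 1 in each case, without tetraploid array 2 it was 5, and without diploid array 3 it was 8.

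**Figure D3:**
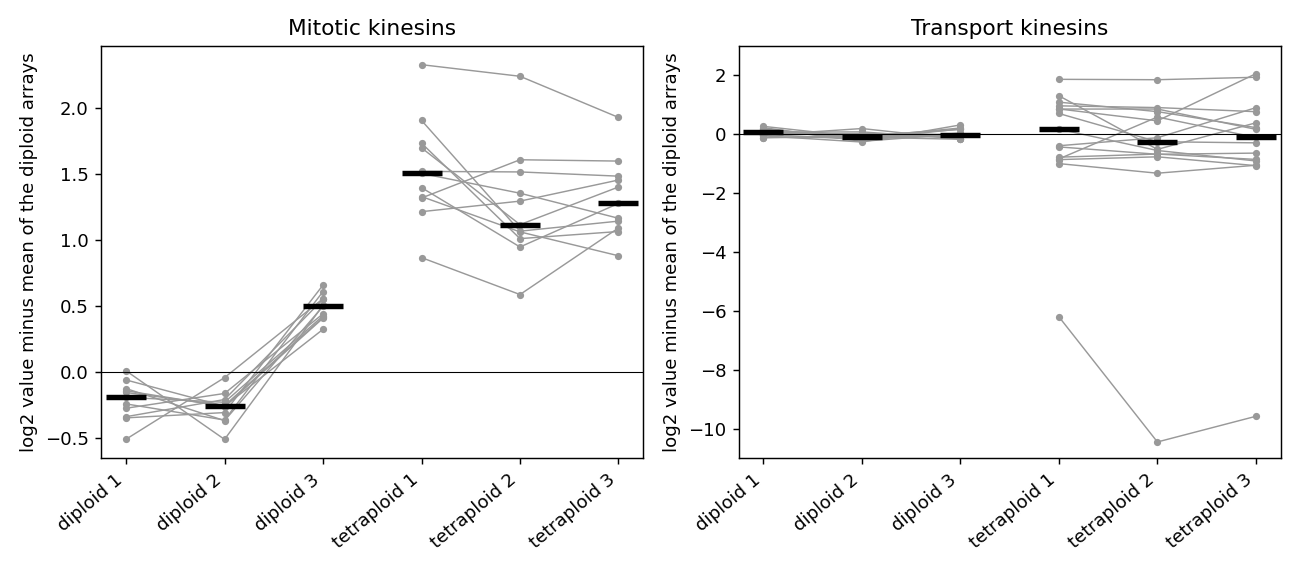
Each grey point is 1 kinesin gene on 1 array, as its log2 value minus its mean over the diploid arrays, with grey lines joining the values of a gene within a line and black bars giving the median of the genes; arrays within a line have no order. Mitotic genes (left) stand higher on diploid array 3 than on diploid arrays 1 and 2 and higher still on the tetraploid arrays, while transport genes (right) lie close to 0 on the diploid arrays and spread in both directions on the tetraploid arrays.

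Proteins that work with the mitotic kinesins were measured through 14 genes, of which 10 rose (6.08% of all genes rose) and 0 fell, with a median difference of 1.20. Ska1, a kinetochore component, was at 8.27 ± 0.18 against 6.45 ± 0.22 (SD, n = 3; below background on all diploid arrays, at least 2.15-fold higher, adjusted p = 0.00420). Racgap1, the partner of Kif23 in centralspindlin, was at 11.37 ± 0.04 against 9.53 ± 0.44 (3.58-fold higher, adjusted p = 0.00751). Nusap1, which bundles spindle microtubules, was 3.39-fold higher (adjusted p = 0.00900), and Ndc80, the kinetochore anchor for microtubules, 2.86-fold higher (adjusted p = 0.00916). Prc1, the midzone crosslinker that binds Kif4, differed by 0.70 and was not called (adjusted p = 0.147). The calls of these 4 genes were kept in all 6 fits without 1 array, whereas those of the other 6 ended without diploid array 1 (adjusted p 0.0697 to 0.125), diploid array 2 (0.0797 to 0.141) or tetraploid array 2 (0.0559 to 0.0864), and 4 and 3 of them without tetraploid array 1 (0.0501 to 0.0769) and 3 (0.0548 to 0.0755).

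Kinesins outside the symbol rule numbered 3. Cenpe, the kinetochore motor that brings chromosomes to the metaphase plate, stood at 10.55, 10.14 and 9.68 against 8.55, 8.04 and 8.97 (3.04-fold higher, adjusted p = 0.0230). The minus-end directed motors Kifc2 and Kifc3 differed by -0.13 and 0.23 and were not called (adjusted p 0.813 and 0.720). Kifc1 shares its probe set with another gene and was not analysed here.

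Transport kinesins went in both directions. The tetraploid values lay above the diploid values in 5 of the 15 genes and below them in 5, beside 19.1% and 18.2% of all genes. The median of the 15 differences was 0.05, while their mean level was 8.34 to 8.48 on the diploid arrays and 7.75 to 8.23 on the tetraploid arrays, so median and mean differed in sign. Without Kif1a the mean of the remaining 14 was 8.29 to 8.50 on the tetraploid and 8.16 to 8.31 on the diploid arrays, so the lower mean rested on that gene. The sign of the median was not stable: it was -0.06 without tetraploid array 1, -0.13 without tetraploid array 3 and -0.0044 without diploid array 2. In 13 of 15 transport genes the tetraploid arrays had the larger SD, as they did in 64.7% of all genes.

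Kif1a, a fast axonal motor that carries synaptic vesicle precursors, had the largest difference of all 38 members. Its diploid values were 10.76, 10.77 and 10.54, and its tetraploid values 4.49, 0.24 and 1.11. All 3 tetraploid values lay below background and far apart, while the diploid values were high and close together. It was at least 10.6-fold lower in the tetraploid line (adjusted p = 0.00378), and the call held in all 6 fits without 1 array (adjusted p 5.08e-04 to 0.0191). Neuronal markers were set beside it: of 15, 2 fell (7.75% of all genes fell) and 0 rose, with a median difference of 0.04. The 2 were the axonal genes Gap43 (7.23, 5.80 and 7.85 tetraploid, 9.32, 8.99 and 9.61 diploid, adjusted p = 0.0280) and Nefl (below background on all 6 arrays, adjusted p = 0.0161). Stmn2 read 9.74, 3.09 and 4.03 tetraploid and 9.12, 8.03 and 8.87 diploid, and was not called (adjusted p = 0.259). The mean of the neuronal list was 7.37, 6.72 and 7.05 on the tetraploid and 7.40 to 7.49 on the diploid arrays. Of the 15 markers, 6 lay above background on all 6 arrays. The part of such cells in the Kif1a values was not tested.

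The relatives of Kif1a in the kinesin-3 family changed less. Kif1b, a carrier of mitochondria and synaptic vesicle precursors, read 9.25, 9.36 and 9.18 against 10.02, 10.05 and 10.02, a fall of 0.77 on the log2 scale (difference -0.77 ± 0.18, SE; adjusted p = 0.0345). Kif1c, a motor of dense core vesicles and integrins, read 10.49, 10.24 and 10.28 against 10.93, 10.94 and 10.89 without passing the test (difference -0.59, 95% interval -1.02 to -0.15, adjusted p = 0.0816). Its second probe set also differed by -0.59. The 3 Kif1 genes therefore each had non-overlapping groups with the diploid line higher. Kif16b, an endosome motor of the same family, read 9.03, 9.03 and 8.34 against 8.06, 8.12 and 8.33, with tetraploid array 3 beside the highest diploid value (difference 0.63, 95% interval 0.03 to 1.23, adjusted p = 0.155). Kif13a read 8.56, 7.84 and 7.49 against 8.66, 8.29 and 8.22, with overlap (difference -0.43, 95% interval -1.17 to 0.31, adjusted p = 0.422), and Kif13b, near background, differed by -0.12 (adjusted p = 0.868). The call of Kif1b ended in 5 of the 6 fits without 1 array, those without diploid array 1, 2 or 3 (adjusted p 0.118, 0.136 and 0.104) or tetraploid array 2 or 3 (0.0597 and 0.0674).

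Kinesin-1 consists of a motor dimer and light chains that bind cargo. Kif5b, its motor in most tissues, read 10.02, 9.69 and 9.96 in the tetraploid line and 11.11, 10.95 and 10.99 in the diploid line. The groups were separate, and the gene was 2.18-fold lower (difference -1.13 ± 0.19, SE; adjusted p = 0.0135). Kif5a, a neuronal paralog, stood at 7.33, 6.93 and 8.53 against 6.70, 6.23 and 6.49. All its diploid values were below background, tetraploid array 3 was the high value, and its difference of 1.12 did not pass the test (95% interval 0.14 to 2.11, adjusted p = 0.124). Kif5c, also neuronal, lay near background with a difference of 0.05 (adjusted p = 0.933). The light chain gene Klc1 read 10.32, 9.69 and 10.15 against 10.76, 10.65 and 10.65 and was not called (difference -0.63, adjusted p = 0.117). The call of Kif5b ended without diploid array 1 (adjusted p = 0.0614) or 2 (0.0619).

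Kinesin-2 is a trimer of Kif3a, either Kif3b or Kif3c, and the adaptor Kifap3, and it moves cargo in cilia and in the cytoplasm. The alternative partners of Kif3a went in opposite directions. Kif3b read 8.52, 8.61 and 8.31 against 9.51, 9.34 and 9.29 (1.86-fold lower, adjusted p = 0.0276). Kif3c read 8.91, 8.85 and 8.71 against 8.09, 7.82 and 7.92 (1.84-fold higher, adjusted p = 0.0275). In both genes the lines did not overlap.

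Within each array, the value of Kif3c minus that of Kif3b was 0.39, 0.24 and 0.40 in the tetraploid line and -1.42, -1.51 and -1.37 in the diploid line, a shift of 1.78. This shows unequal change, not which protein is more abundant, since values of different probe sets are not comparable as levels. Kif3a itself read 9.59, 9.27 and 8.72 against 8.65, 8.31 and 8.54 (difference 0.70, 95% interval 0.06 to 1.33, adjusted p = 0.139), and Kifap3 differed by -0.68 (adjusted p = 0.0914). The calls of Kif3b and Kif3c ended without diploid array 1 (adjusted p 0.108 and 0.0752), diploid array 2 (0.103 and 0.121), diploid array 3 (0.0764 and 0.0904) or tetraploid array 2 (0.05 and 0.0655), and that of Kif3b without tetraploid array 3 (0.0581).

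**Figure D4:**
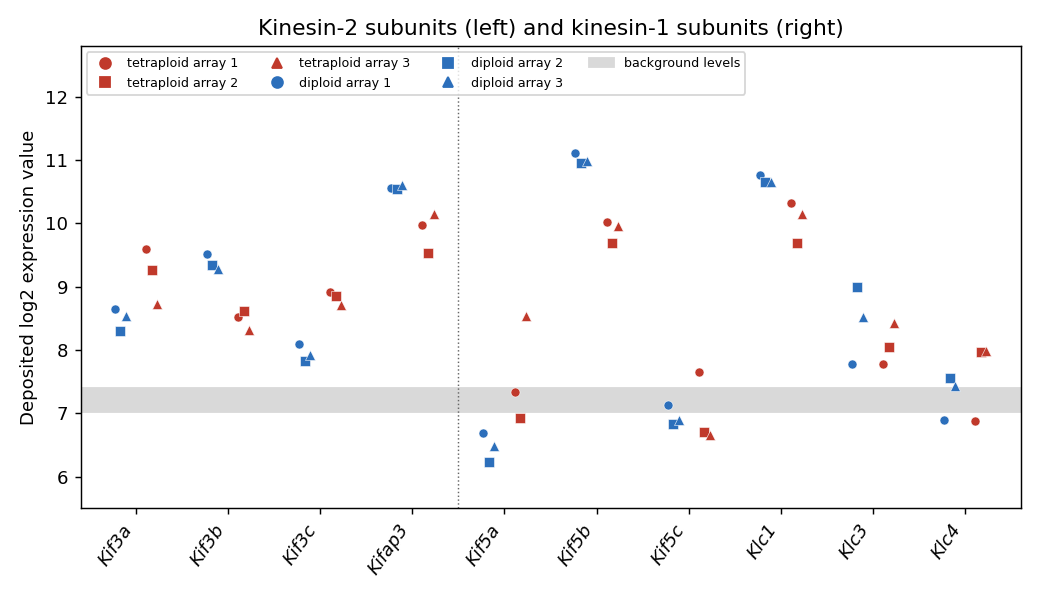
Deposited log2 value on each array for the kinesin-2 subunits (left of the dotted line) and the measured kinesin-1 motors and light chains (right), with tetraploid arrays in red, diploid arrays in blue and the background levels in grey. The blue points lie above the red points for Kif3b and Kif5b and below them for Kif3c.

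Kif21a and Kif21b are related motors that also slow microtubule growth. Kif21a read 8.36, 8.35 and 8.43 in the tetraploid line and 6.49, 6.32 and 6.68 in the diploid line, where all values were below background. It was at least 2.32-fold higher (adjusted p = 0.00266), its tetraploid SD of 0.04 was the smallest among the transport members, and its call held in all 6 fits without 1 array (adjusted p 0.00782 to 0.0190). Kif21b read 9.22, 7.40 and 8.30 against 7.88, 8.10 and 7.74, so tetraploid arrays 1 and 2 lay on either side of all diploid values, and it was not called (difference 0.39, adjusted p = 0.614). Kif17, a dendritic and ciliary motor, was below background on all 6 arrays.

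Cargo adaptors and regulators of the transport kinesins were measured through 17 genes, of which 3 rose, 2 fell and 12 were not called, with a median difference of -0.13. Of all genes 6.08% rose and 7.75% fell. Madd, an adaptor of Kif1a and Kif1b, was 2.12-fold higher (8.15 ± 0.08 against 7.07 ± 0.22, SD, n = 3; adjusted p = 0.0174). The scaffold genes Mapk8ip1 and Mapk8ip3, whose proteins link kinesin-1 to cargo, were 3.27-fold and 2.09-fold higher (adjusted p 0.0215 and 0.0439). Fez2 was 1.93-fold lower (adjusted p = 0.0195), and Trak2, which ties kinesin-1 to mitochondria, was 2.54-fold lower (adjusted p = 0.0454). All 5 calls ended without diploid array 1 (adjusted p 0.0723 to 0.121), 2 (0.0636 to 0.153) or 3 (0.0526 to 0.133), those of Mapk8ip3, Trak2 and Fez2 without tetraploid array 2 (0.05 to 0.115), those of Trak2 and Mapk8ip3 without tetraploid array 3 (0.0849 and 0.0993) and that of Mapk8ip3 with quantile normalization (0.0501). Cytoplasmic dynein and dynactin move cargo the other way along microtubules. Of 16 such genes limma called 0, with a median difference of -0.32. At an unadjusted p below 0.05, 6 of the 16 were lower, beside 15% of all genes. With low values lifted to background limma called 6 as lower, beside 9.97% of all genes. Tetraploid values lay below diploid values in 9 and above them in 1, beside 18.2% and 19.1% of all genes.

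Ciliary and centriolar members were mostly near background. Kif24, which takes apart microtubules at centrioles and holds back cilia, stood at 7.23, 6.30 and 5.60 against 4.95, 4.53 and 4.76 and was called higher (adjusted p = 0.0421). Only tetraploid array 1 lay above background, so no fold is given. With low values lifted to background the difference was 0.14, beside 0.12 for genes below background on all 6 arrays. The call of Kif24 was lost in that setting (adjusted p = 0.463). It was also lost in 5 of the 6 fits that left out 1 array (adjusted p 0.0504 to 0.135) and kept without tetraploid array 3 (0.0223). Kif7, a regulator of Hedgehog signalling at the tip of the cilium, read 8.04, 7.87 and 8.06 against 8.48, 8.57 and 8.65, with no overlap (difference -0.58, 95% interval -1.01 to -0.14, adjusted p = 0.0858). Its second probe set differed by -0.11. Kif27, a paralog of Kif7, lay below background on all arrays but diploid array 3 and was not called (adjusted p = 0.0707). Kif9 and Kif19a lay close to background with differences of -0.27 and 0.00, and Kif6 lay below it on all 6 arrays.

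Of the other members, Kif26b was the gene that fell. Kif26a and Kif26b are atypical kinesins without motor activity that act in cell signalling. Kif26b read 7.46, 7.50 and 8.70 in the tetraploid line and 10.49, 11.04 and 10.81 in the diploid line, with tetraploid array 3 above the other two. It was 7.42-fold lower (difference -2.89 ± 0.37, SE; adjusted p = 0.00558), and the call held in all 6 fits without 1 array (adjusted p 0.00279 to 0.0279). Its second probe set differed by -3.00. Kif2a, a microtubule depolymerase used in spindles and in neurons, read 10.93, 10.26 and 10.47 against 10.04, 9.91 and 10.18, with no overlap but no call (difference 0.51, 95% interval -0.05 to 1.07, adjusted p = 0.208). Kif26a, Kif2b and Kif12 lay below background on all 6 arrays.

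Neighbouring genes were set beside each member to show how the surrounding chromosome stretch moved. For each member the median difference of up to 10 genes on each side was taken, from the 9952 genes with a position whose level was above the median of all genes, whose own median difference was 0.08. The neighbour median lay within 0.3 of 0 for 31 of the 38 members. It was lowest for Kif17 on chromosome 4 (-0.64, 10 of 20 neighbours fell), Kif26b on chromosome 1 (-0.52, 5 of 20 fell), Kif26a on chromosome 12 (-0.51, 3 of 20 fell) and Kif7 on chromosome 7 (-0.48, 7 of 20 fell), beside 8.82% of the 9952 genes. It was highest for Kif11 on chromosome 19 (0.48, 6 of 20 rose, beside 8.78%). Kif1a on chromosome 1 had a neighbour median of -0.24 (2 of 20 fell), Kif18a on chromosome 2 of 0.16, and Kif21a on chromosome 15 of 0.24. The part of such stretches in the members' differences was not tested.

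**Figure D5:**
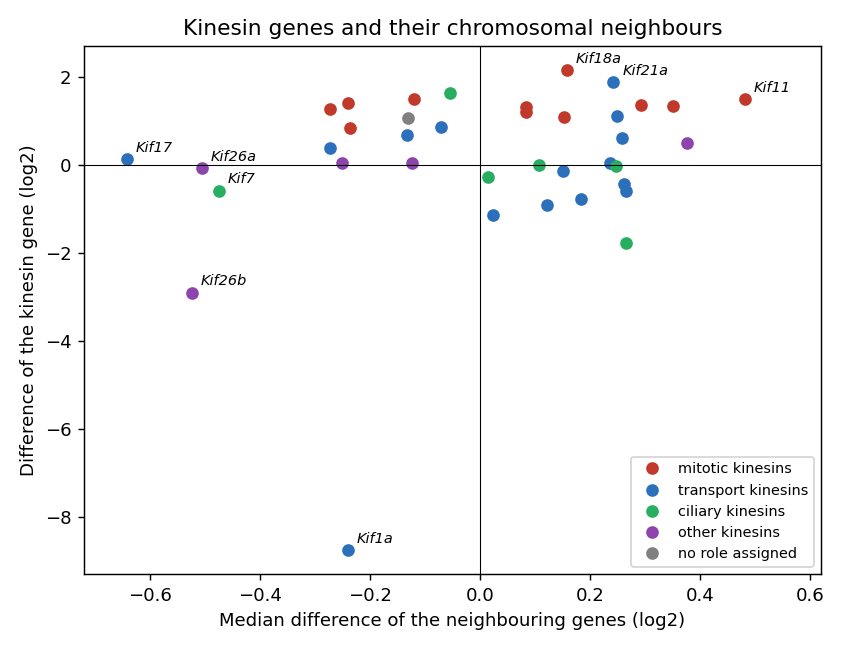
For each of the 38 kinesin genes, the median log2 difference of its neighbouring genes (horizontal axis) against its own log2 difference (vertical axis), coloured by role. Mitotic genes lie above 0 on the vertical axis whether their neighbours' median is below or above 0, and Kif26b, Kif26a, Kif17 and Kif7 have the lowest neighbour medians.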

How the data were processed

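Total RNA of 6 samples was measured on Affymetrix whole-transcript arrays. Values were used as the authors deposited them, on a log2 scale with 1 value per probe set. Per the submitters' processing notes, they came from Affymetrix Expression Console, with version, algorithm and normalization not given in the sources used here. As powers of 2, 100% of the low values checked were whole hundredths (tolerance 0.1 of a hundredth). Arrays give no counts, and their number limits the precision.

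Of 28944 probe sets, 21789 carried 1 gene symbol, 1621 several and 5534 none, and only the first were used. The lines were tested against each other in limma 3.58.1 (R 4.3.3, two-sided), adjusted by Benjamini-Hochberg over 19939 genes, and tested on simulated data beforehand. Every interval is from this fit, and so is every adjusted p for which no other setting is named. Where all 3 arrays of a line lay at or below background, the fold is a lower bound. An exact permutation test of 3 against 3 arrays cannot go below 0.1.

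By the rule for named genes, any member could be named, with values on all 6 arrays for called members and for uncalled members above background on all 6. Members below background on all 6 arrays are given as a group. Of other lists, at most the 4 called genes with the smallest adjusted p in each direction are named, plus the kinesins outside the symbol rule. Naming Prc1, Klc1, Kifap3 and Stmn2, and giving array values for Kif14, Kif5a, Kif21b and Kif4-ps, fall outside this rule and were chosen after their values were seen. Members and gene lists were chosen with earlier results of these data known. Replicate numbers were not treated as pairs, since the labels do not give them as such. Deviations of same-numbered arrays over all genes correlated at 0.1, 0.0308 and -0.0461, which cannot exclude pairing. Alternatives were quantile normalization, a filter on low levels, values lifted to background, the mean over probe sets, eBayes with trend and robust, the replicate block and leaving out each array.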

Additional observations from a re-analysis of the deposited data

How the results depend on the processing

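No called kinesin gene changed direction under any setting run. Of all genes, 1213 rose, against 1960 with values lifted to background and 1906 with trend and robust moderation. Without 1 array, 839 to 2522 genes were called, 261 to 1040 as higher and 578 to 1552 as lower. In these fits 1 to 8 mitotic kinesin genes rose, 1 to 2 transport kinesin genes rose and 1 to 4 fell, and the transport median was -0.13 to 0.21. Without Kif21a and Kif21b, 1 transport gene rose and the median was -0.12. The labels do not say that the replicate numbers pair the samples. With the replicate block 1647 genes were called, 607 as higher, and 1 transport gene rose and 2 fell. Kif18b, Kif1b, Kif3b, Kif3c and Kif4 lost their calls in that fit. So did 6 of the 10 called mitotic partners (adjusted p 0.0513 to 0.0851) and 4 of the 5 called transport partners, Mapk8ip3, Trak2, Fez2 and Madd (0.0519 to 0.0772). Trend and robust moderation added calls of Kif14, Kif1c, Kif22 and Kif27, and lifting to background added Kif1c, Kif22, Kif3a and Kif7. Members near background have no measurable fold at this signal.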
